A study of Mus musculus with 10 samples.

Results

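Apolipoproteins and lipid handling genes were followed across the cell classes of the aged mouse inner ear. The 9 genes were *Apoe*, *Apod*, *Apoc1*, *Clu*, *Lpl*, *Abca1*, *Trem2*, *Lrp1* and *Lrp2*, taken by symbol from the 32285 genes of the count matrices, and all 9 were found. Single-cell RNA libraries (10x Genomics 3′ v3.1 chemistry, counted as unique molecular identifiers, UMIs) came from the cochlea, the hearing organ, and the vestibule, the balance organ, of wild-type CBA/J mice aged 22 months. Both groups are untreated and of the same age, each library pools 7 to 8 mice, and the cells were labelled as sensory epithelium. The labels give 5 biological replicates per organ. Replicates 1 and 2 of each organ held the same cells (1313 and 1633 shared barcodes, against at most 41 between other library pairs) and their counts differed by less than sampling noise, so each pair was averaged and counted as 1 sample, which left 4 libraries per organ, replicates 1, 3, 4 and 5. Nothing in the labels ties an organ's library to particular mice, and p-values therefore measure the spread between pools.

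After filtering, 17696 cells of 38783 barcodes remained, 7272 from the cochlea and 10424 from the vestibule. Replicate 3 gave 5070 of the cochlear and 5438 of the vestibular cells. Total UMIs ran from 2738036 to 26974948 per library. Cells were clustered in each organ without the 9 genes or a wider lipid list, and clusters were named only from markers, so a class such as hair cell (HC) or supporting cell (SC) means HC-like or SC-like. Clusters that carried no clear marker set are called by their leading genes. HC markers defined 222 cochlear and 2003 vestibular cells. The cochlear HCs divided into a cluster of 146 cells with inner HC markers and a cluster of 76 cells with outer HC markers. Most cells in both organs were therefore not HCs, although the tissue was labelled sensory epithelium. Fibrocytes, the stromal cells of the lateral wall and of the tissue under the sensory epithelium, numbered 1276 and 2196, and macrophages 446 and 359.

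Apolipoproteins are the protein part of lipoprotein particles, which carry cholesterol and other lipids between cells. ABCA1 loads cholesterol onto them, lipoprotein lipase (LPL) releases fatty acids from them, and members of the LDL receptor family such as LRP1 and LRP2 (megalin) take them up. TREM2 is a lipid-sensing receptor of myeloid cells that binds APOE and clusterin (CLU). In neural tissue APOE and CLU are made mainly by glia rather than by neurons.

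The 9 genes lie on 8 chromosomes of the GRCm38 assembly, the build that the mm10 count matrices use, and all are protein coding. *Apoe* (ENSMUSG00000002985, chromosome 7, 19696109 to 19699188) and *Apoc1* (ENSMUSG00000040564, chromosome 7, 19689481 to 19692660) are neighbours on the minus strand with 3448 bases between them. *Lrp1* (chromosome 10, 127538161 to 127621148, minus strand) overlaps the antisense gene Gm16217 on the plus strand. None of the other genes overlapped another annotated gene in GENCODE M21. The remaining loci are *Apod* (chromosome 16, 31296192 to 31314808, minus strand), *Clu* (chromosome 14, 65968483 to 65981547, plus strand), *Lpl* (chromosome 8, 68880491 to 68907448, plus strand), *Abca1* (chromosome 4, 53030787 to 53159895, minus strand), *Trem2* (chromosome 17, 48346401 to 48354147, plus strand) and *Lrp2* (chromosome 2, 69424340 to 69586065, minus strand).

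RefSeq promoters were at hand for 6 of the 9 genes. The 250 bases before the start are shown for *Apoe*, *Abca1* and *Trem2*, because these 3 genes shared macrophages as their highest named class. Capitals mark matches on either strand to TATAAA, to the E-box CACGTG, to the GC box GGGCGG or to GAGGAA, a core found in sites of the myeloid factor PU.1.
Apoe, chr7:19699189-19699438, minus strand: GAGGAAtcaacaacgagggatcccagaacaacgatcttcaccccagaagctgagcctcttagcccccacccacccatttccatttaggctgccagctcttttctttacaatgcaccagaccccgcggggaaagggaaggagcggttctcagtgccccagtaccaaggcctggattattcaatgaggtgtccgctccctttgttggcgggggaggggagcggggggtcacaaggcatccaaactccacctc
Abca1, chr4:53159896-53160145, minus strand: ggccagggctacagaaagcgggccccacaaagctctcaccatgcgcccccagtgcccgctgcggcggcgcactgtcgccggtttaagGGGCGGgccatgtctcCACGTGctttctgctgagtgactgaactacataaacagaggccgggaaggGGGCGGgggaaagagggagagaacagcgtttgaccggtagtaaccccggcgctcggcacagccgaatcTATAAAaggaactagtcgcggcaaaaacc
Trem2, chr17:48346151-48346400, plus strand: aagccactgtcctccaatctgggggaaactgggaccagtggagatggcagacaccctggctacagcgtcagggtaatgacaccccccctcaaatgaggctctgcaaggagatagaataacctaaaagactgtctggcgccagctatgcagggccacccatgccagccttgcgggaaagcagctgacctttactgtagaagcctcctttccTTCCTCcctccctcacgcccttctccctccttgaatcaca
The GAGGAA core stood in the *Trem2* window, in this *Apoe* window and in that of the stromal gene *Apod*, and 23.3% of 32851 promoter windows of this length hold it. The E-box of *Abca1* occurs in 6.0% of windows and its TATAAA in 12.4%. GGGCGG, also in *Abca1*, occurs in 32.7% of windows. These matches are letters in a window and were not tested for binding.

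**Figure D1:**
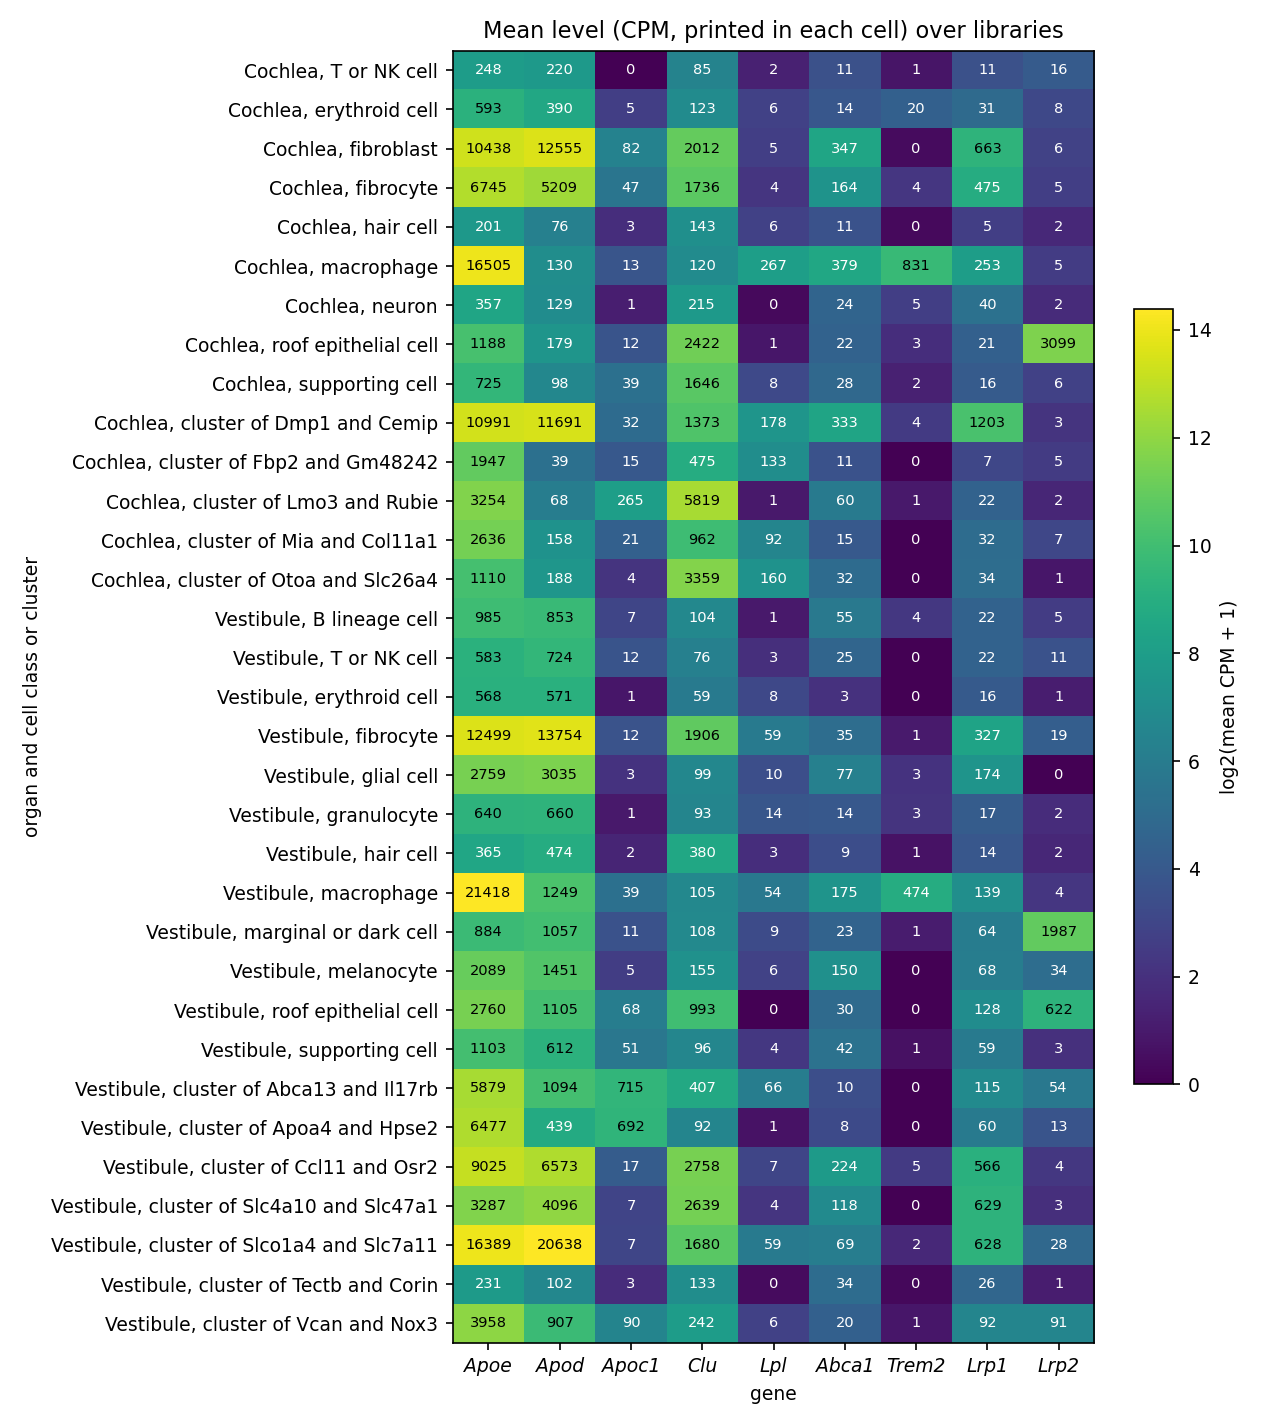
Mean level of each gene (columns) in each cell class or cluster with at least 10 cells in 3 or more libraries (rows), as counts per 1000000 UMIs (CPM, printed) and as log2(mean CPM + 1) (colour). *Apoe* was highest in macrophages (21418 and 16505 CPM), *Trem2* stood out in macrophages alone, and *Lrp2* stood out in roof epithelial and in marginal or dark cells.

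Levels are given as counts per 1000000 UMIs of a class in a library (CPM), with the SD over libraries. The classes were drawn from expression, so differences between classes are descriptions and were not tested. Levels of different genes are not compared.

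*Apoe* was highest in macrophages. Vestibular macrophages had 39504, 15985, 17145 and 13036 CPM in replicates 1, 3, 4 and 5, a mean of 21418 ± 12181 (SD, n = 4), and cochlear macrophages had 10511, 21257, 15844 and 18410, a mean of 16505 ± 4567. The high vestibular value came from replicate 1, which held 10 macrophages. Stromal cells followed closely. A vestibular cluster led by *Slco1a4* and *Slc7a11* had 16389 ± 3078 CPM, vestibular fibrocytes 12499 ± 1547, a cochlear cluster led by *Dmp1* and *Cemip* 10991 ± 1731, and cochlear fibroblasts 10438 ± 3557. Each of these neighbours differed from the next by less than the sum of their SDs, so their order is not resolved.

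HCs held little *Apoe*. Cochlear HCs had 130, 266, 227 and 183 CPM, and vestibular HCs 148, 754, 392 and 167 CPM. The same libraries also held blood cells (T or NK, B lineage, granulocyte and erythroid cells pooled), which are not known as a source of *Apoe* and serve as a reference for RNA free in the suspension. Their *Apoe* was 447 ± 270 CPM in the cochlea and 505 ± 383 CPM in the vestibule. Cochlear HCs lay below the blood cells of their own library in 4 of 4 libraries (0.323 to 0.881 times), and vestibular HCs exceeded them in 1 of 4 (0.541 to 1.75 times). That library, vestibular replicate 1, held only 4 to 9 cells of each pooled blood class. Cochlear replicate 4 held 1 to 6 of each. An *Apoe* UMI was seen in 50.7% of vestibular HCs (95% exact binomial interval 48.5 to 52.9) at a median of 3798 UMIs per cell, and in 56.9% of vestibular blood cells at a median of 3496. Thinned to 1000 UMIs per cell, the shares were 27.6% and 32.8%. *Apoe* in HCs was thus not above the blood-cell level in 7 of 8 libraries, and intervals cover counting error only. The blood cells also held macrophage markers, 54 to 870 CPM in the cochlea and 42.3 to 88 CPM in the vestibule over the 10 markers, whose part in their *Apoe* was not tested.

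Among the vestibular HC clusters, 1 had a higher mean of *Apoe*, although its gap to the others was smaller than its SD. The cluster led by *Myh13* and *Car12*, the shallowest at a median of 1511 UMIs per cell, had 963 ± 741 CPM of *Apoe* and 1267 ± 1109 CPM of *Apod*. The other 4 vestibular HC clusters, at medians of 3564 to 4709 UMIs, had means of 235 to 470 CPM of *Apoe*. SCs stood slightly above the blood cells, at 725 ± 202 CPM in the cochlea and 1103 ± 404 CPM in the vestibule, and exceeded them in 4 of 4 libraries of each organ. Cochlear neurons had 357 ± 265 CPM and exceeded blood cells in 1 of 4 libraries.

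**Figure D2:**
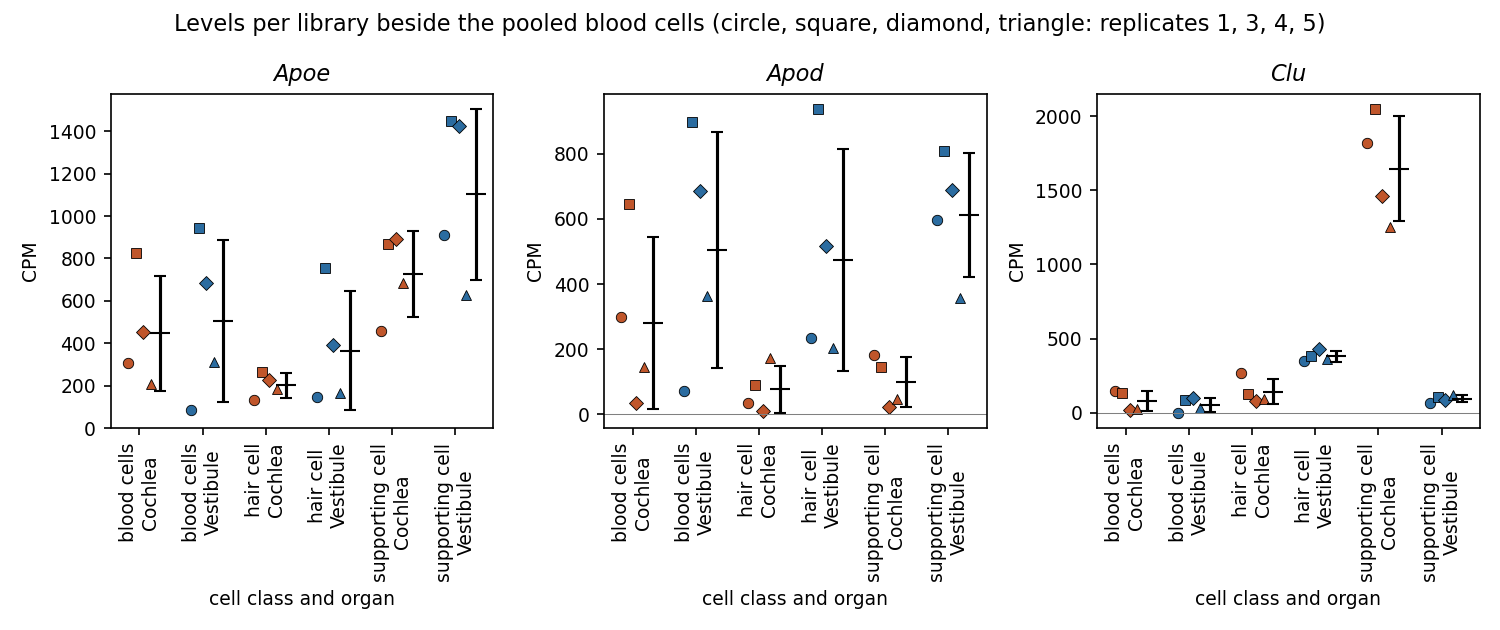
CPM of *Apoe*, *Apod* and *Clu* in pooled blood cells, HCs and SCs, 1 symbol per library (circle, square, diamond and triangle for replicates 1, 3, 4 and 5), with the mean and SD at the right of each group. HC *Apoe* and *Apod* overlapped the blood cells, while *Clu* in cochlear SCs (1255 to 2049 CPM) and in vestibular HCs (346 to 430 CPM) lay above them.

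*Apod*, a lipocalin that carries small lipids and is made by fibroblasts and some glia, was a stromal transcript. It reached 20638 ± 2305 CPM in the vestibular cluster led by *Slco1a4*, beyond the spread of the next unit, vestibular fibrocytes at 13754 ± 1943. Cochlear fibroblasts had 12555 ± 1758 CPM and cochlear fibrocytes 5209 ± 1548. Glial cells of the vestibule had 3035 ± 1451 CPM (n = 3), and the cochlear glial cluster, with 18 of its 22 cells in replicate 3, had 5359 CPM in that library beside only 149 CPM of *Apoe*. Macrophages, the class highest in *Apoe*, had 130 ± 136 CPM of *Apod* in the cochlea and 1249 ± 580 in the vestibule. Over the 21 named class-by-organ units with at least 3 libraries, genes much like *Apod* were *Tbx18* (Pearson r = 0.956) and *Ranbp3l* (0.935). *Tbx18* is among the markers that define fibrocytes.

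*Apoc1*, a small apolipoprotein that inhibits lipases, was highest in a few clusters that no marker list named. The vestibular clusters led by *Abca13* and *Il17rb* (784, 498, 467 and 1111 CPM) and by *Apoa4* and *Hpse2* (1031, 405, 534 and 798 CPM) did not differ beyond their spread. The cochlear cluster led by *Lmo3* and *Rubie* came next with 265 ± 92.6 CPM (n = 3). No named class passed a mean of 81.8 CPM, that of cochlear fibroblasts. In macrophages it was 13 CPM in the cochlea and 38.8 CPM in the vestibule. Its gene neighbour *Apoe* was high in the same 3 clusters (5879, 6477 and 3254 CPM) but also in many others. HCs had 4 *Apoc1* UMIs in 222 cochlear and 18 in 2003 vestibular cells.

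*Clu*, which encodes the secreted chaperone clusterin, was an epithelial and stromal transcript. Roof epithelial cells, which line the non-sensory wall of the fluid spaces, had 2422 ± 145 CPM in the cochlea and 993 ± 380 CPM in the vestibule. The cochlear cluster led by *Lmo3* and *Rubie* reached 5819 ± 855 CPM, beyond the spread of the next, the cluster led by *Otoa* and *Slc26a4* among units with at least 3 libraries, with 3359 ± 660 CPM. *Otoa* encodes otoancorin, a protein of the interdental cells that anchor the tectorial membrane. Cochlear fibroblasts had 2012 ± 270 CPM. Macrophages, at 120 and 105 CPM, were close to blood cells at 79.5 and 55.6 CPM.

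Cochlear SCs were not uniform in *Clu*. A cluster of 119 cells led by *Rbp7*, *Tectb* and *Plbd1*, with the SC gene *Fgfr3* also among its 10 leading genes, had 12581, 13127, 10381 and 13830 CPM. The remaining cochlear SC clusters had 755 ± 175 CPM (led by *Pcdh17* and *Agr2*) and 574 ± 70.9 CPM (led by *Dgkb*). No value of the *Rbp7* cluster came near those of the others, and the same cluster had only 101 ± 102 CPM of *Apoe*. In vestibular SCs *Clu* was 96.4 ± 22.1 CPM, above the blood cells in 2 of the 3 libraries where these had a *Clu* UMI. Vestibular HCs held more than vestibular SCs, 346, 386, 430 and 359 CPM, and exceeded blood cells in all 3 of those libraries. Among vestibular HC clusters the one led by *Fndc1* had 633 ± 39.9 CPM and the one led by *Mgat4c* 237 ± 7.44 CPM.

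**Figure D3:**
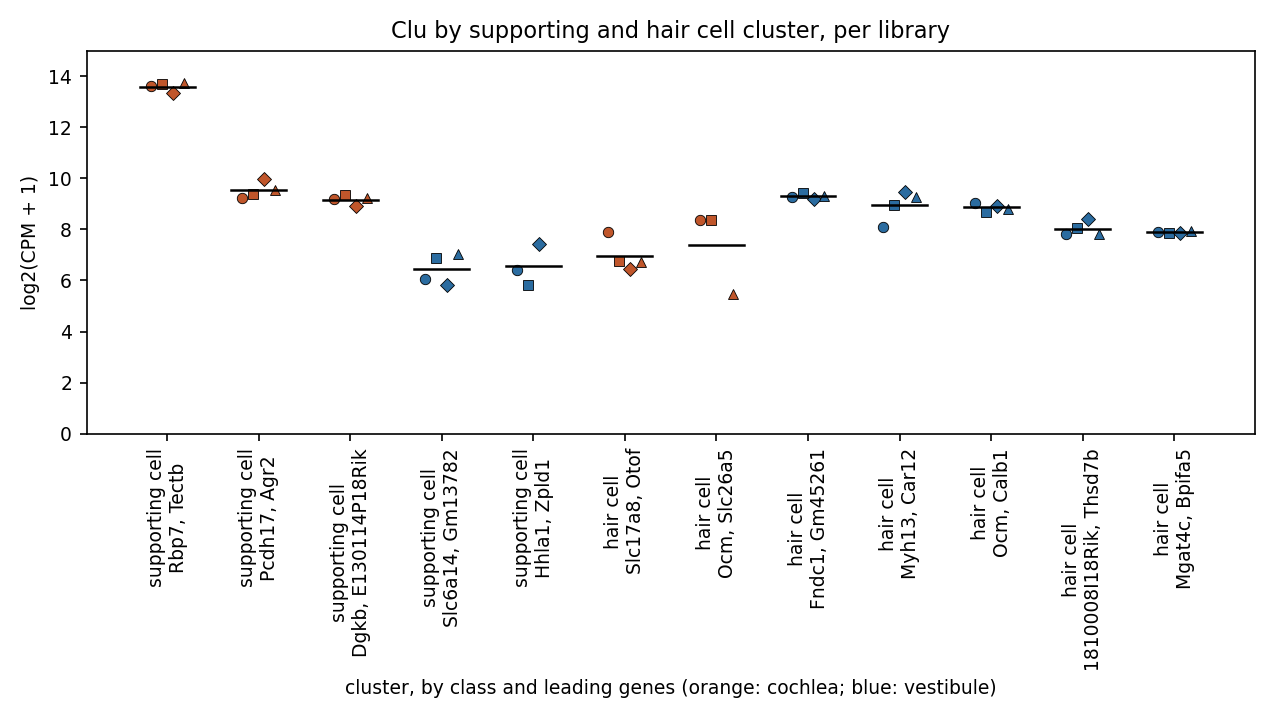
*Clu* in each SC and HC cluster of the cochlea (orange) and vestibule (blue), as log2(CPM + 1), 1 symbol per library with at least 10 cells (shapes as for replicates 1, 3, 4 and 5) and a line at the mean of these log2 values. The cochlear SC cluster led by *Rbp7* (10381 to 13830 CPM) stood far above every other SC or HC cluster.

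*Trem2* marked macrophages. Cochlear macrophages had 907, 1006, 836 and 574 CPM and vestibular macrophages 691, 481, 425 and 300 CPM, and both means (831 ± 185 and 474 ± 163) lay beyond the spread of the next class, cochlear erythroid cells at 20.3 ± 20.9 CPM. A *Trem2* UMI was seen in 63.5% of cochlear and 45.4% of vestibular macrophages, and in 0.45% of cochlear HCs (1 UMI) and 0.25% of vestibular HCs (5 UMIs). The most similar genes were *Fcgr1* (r = 0.96), *P2ry6* (0.955) and *Adgre1* (0.955), all receptors of myeloid cells, the last of which is a macrophage marker used for naming.

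*Abca1* and *Lpl* were highest in cochlear macrophages among the named classes, with wide spread. *Abca1* was 578, 260, 583 and 93.9 CPM there and *Lpl* 731, 80.2, 216 and 41.7 CPM. Cochlear fibroblasts (347 ± 67.3 CPM) and the *Dmp1* cluster (333 ± 106 CPM) lay within the macrophage spread of *Abca1*. Outside macrophages *Lpl* was 178 ± 291 CPM in the *Dmp1* cluster, 160 ± 79.9 CPM in the cluster led by *Otoa* and 133 ± 27.4 CPM in the cluster led by *Fbp2*, and none of these neighbours differed beyond their spread.

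Cochlear macrophages held a minor cluster with other levels. This cochlear cluster of 55 cells led by *Saa3*, *Mmp12* and *Fabp4*, with *Fabp5*, *Ctsk* and *Gpnmb* also among its 10 leading genes, held 17, 32, 5 and 1 cells in replicates 1, 3, 4 and 5. It carried 6 of 10 macrophage markers and had a median of 8656 UMIs per cell, against 2391 in the main cochlear macrophage cluster. In replicates 1 and 3, the libraries with at least 10 such cells, *Lpl* was 1196 and 247 CPM in it against 130 and 20.4 CPM in the main cluster. *Abca1* was 935 and 549 CPM against 104 and 157, *Lrp1* 633 and 373 against 130 and 136, and *Trem2* 1005 and 1621 against 780 and 786. *Apoe* did not follow in the same way, at 11490 and 11159 CPM against 9261 and 24873. With thinning to 1000 UMIs, 22.5% of these cells against 1.43% of the main cluster held an *Lpl* UMI, and 38.1% against 12.3% an *Abca1* UMI. The main cochlear and the vestibular cluster, both led by *C1qa* and *Cx3cr1*, were alike in *Abca1* (134 ± 34.8 and 175 ± 68.6 CPM).

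**Figure D4:**
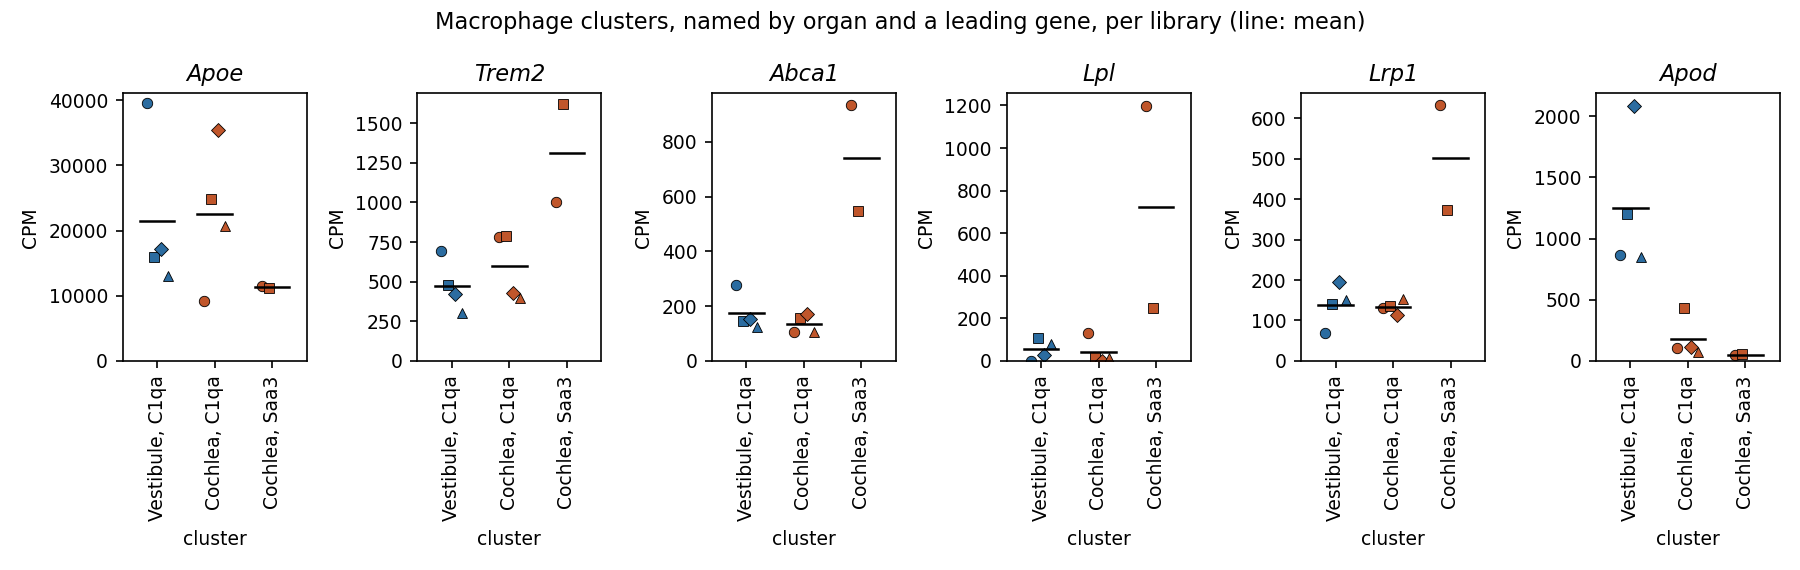
CPM of 6 genes in the vestibular macrophage cluster (blue) and in the main and the *Saa3* cochlear macrophage clusters (orange), 1 symbol per library with at least 10 cells and a line at the mean. *Abca1* (549 and 935 CPM), *Lpl* and *Lrp1* were higher in both libraries of the *Saa3* cluster than in any library of the main cochlear cluster.

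*Lrp1*, a broad endocytic receptor, was stromal. The cochlear cluster led by *Dmp1* had 1632, 1085, 856 and 1237 CPM, beyond the spread of cochlear fibroblasts at 663 ± 115 CPM. Cochlear and vestibular fibrocytes had 475 ± 56.1 and 327 ± 24 CPM, macrophages 253 ± 119 and 139 ± 52.5 CPM, and HCs 5.42 and 14.2 CPM, below and near the blood cells (35.3 and 13.3 CPM). The overlapping Gm16217 lies on the strand opposite to *Lrp1*, and its reads were not examined. *Lrp1* and *Colec12*, a scavenger receptor, were also among the 3 genes most like *Apoe* (r = 0.894 and 0.906), with *Tnfsf13* (0.897).

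*Lrp2*, the endocytic receptor megalin of absorptive epithelia, was epithelial. Cochlear roof epithelial cells had 2222, 3141, 3389 and 3646 CPM, vestibular marginal or dark cells, which secrete the potassium-rich endolymph, 1683, 1352, 2808 and 2105 CPM, and vestibular roof epithelial cells 739, 358, 813 and 578 CPM. The first of these pairs of neighbours overlapped, while the last 2 differed beyond their spread, as did vestibular roof epithelium from the next unit at 91.3 CPM. A cochlear melanocyte cluster, with 131 of its 139 cells in replicate 3 and *Kcne1*, a marginal cell gene, among its 10 leading genes, had 741 CPM in that library. In vestibular melanocytes *Lrp2* was 138 CPM in replicate 3 and 0 in the rest. The genes most like *Lrp2* were *Rgs4* (0.923), *Atp13a5* (0.912) and *Eprn* (0.911), of which *Atp13a5* is a marker of marginal or dark cells.

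For the remaining genes the most similar were *Igfbp2*, *Epha7* and *Fzd2* for *Clu* (0.82, 0.811 and 0.808), *Lag3*, *Cpq* and *Dse* for *Apoc1* (0.835, 0.833 and 0.815), *Lyz1*, *Adap2* and *Ftl1* for *Lpl* (0.85, 0.81 and 0.769), *Ctsl*, *Crtap* and *Trim35* for *Abca1* (0.84, 0.832 and 0.821) and *Gng11*, *Pid1* and *Colec12* for *Lrp1* (0.935, 0.927 and 0.909). These correlations of log2(mean CPM + 1) run over 21 units that share libraries and describe likeness only, among 13211 genes that reached 20 CPM in at least 1 unit.

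The organs were then compared, the only contrast that the labels give, with edgeR's quasi-likelihood test on UMIs summed per library, 4 cochlear against 4 vestibular libraries. Adjusted p-values are Benjamini-Hochberg values over all genes tested, with 0.05 as the threshold, and fold changes carry their SE on the log2 scale. In whole libraries 24.7% of 14535 genes were called, and 4 of the 9 genes were. *Lrp2* was 3.46-fold higher in the cochlea (134, 167, 129 and 156 CPM against 42.7, 39.5, 44.8 and 38.4, log2 fold change 1.79, adjusted p = 2.29e-05). *Abca1* (2.2-fold, adjusted p = 0.000743) and *Clu* (1.89-fold, adjusted p = 0.00287) were also higher in the cochlea, and *Apod* was 2.08-fold higher in the vestibule (adjusted p = 0.00682). *Apoe* did not pass (log2 fold change -0.35 ± 0.30, adjusted p = 0.459), nor did *Lpl* (1.05, adjusted p = 0.0987), *Trem2* (1.39, adjusted p = 0.105), *Apoc1* or *Lrp1*. *Lpl* and *Trem2* passed without cochlear replicate 5 (adjusted p = 0.03 and 0.046) and with DESeq2 (0.04 and 0.0321). In whole libraries the number of cells of a type and the RNA per cell cannot be told apart.

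**Figure D5:**
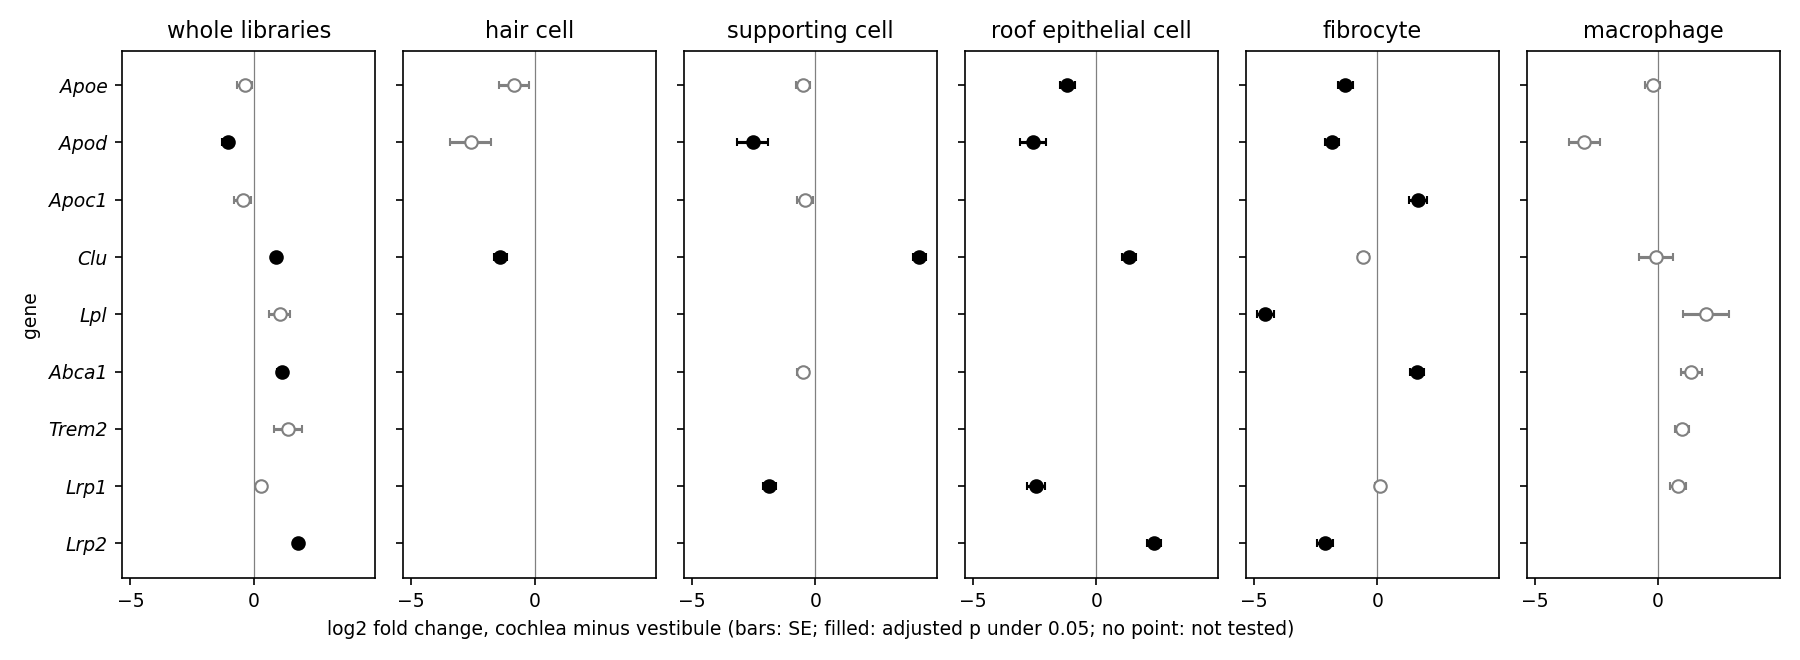
Log2 fold change, cochlea minus vestibule, with its SE, for the genes tested in whole libraries and in 5 cell classes; filled points passed an adjusted p of 0.05. *Clu* was higher in cochlear SCs (4.2) and roof epithelium (1.31) and lower in cochlear HCs (-1.39), and *Apod* lay below 0 in every panel, past the threshold in all but HCs and macrophages.

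Within SCs, *Clu* showed the widest gap of the 6 genes tested. Cochlear SCs had 1818, 2049, 1461 and 1255 CPM and vestibular SCs 69.2, 109, 88.5 and 119 CPM. The groups did not overlap, an 18.4-fold difference (log2 fold change 4.2 ± 0.26, adjusted p = 3.6e-11), in a class where 29.4% of 7986 genes were called. Without the *Rbp7* cluster, an alternative chosen after seeing the data, the log2 fold change was 2.89 and still passed. *Lrp1* (3.64-fold, adjusted p = 9.57e-06) and *Apod* (log2 fold change -2.55 ± 0.64, adjusted p = 0.0199) were higher in vestibular SCs. The *Apod* call was lost without vestibular replicate 1 (adjusted p = 0.0521), with the stricter cell filter (0.0608) and without a filter on low counts (0.051). *Lrp1* was 77.5, 62.7, 53.1 and 41.4 CPM there and 12.2 to 25.7 CPM in cochlear SCs, but with a stricter cell filter (2000 UMIs and 10% mitochondrial UMIs) its log2 fold change shrank to -0.21 and did not pass. *Apoe*, *Abca1* and *Apoc1* did not pass in SCs, *Apoe* at 456 to 892 CPM in the cochlea and 627 to 1450 CPM in the vestibule.

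HCs differed in the opposite direction in *Clu*. Cochlear HCs had 267, 128, 82.4 and 96.1 CPM and vestibular HCs 346 to 430 CPM, 2.63-fold more (log2 fold change -1.39 ± 0.26, adjusted p = 0.000171), where 37.6% of 8933 genes were called. The groups did not overlap, and the difference was -1.15 to -1.8 on the log2 scale under all alternatives, past the threshold in each. The inner and outer HC clusters had 134 ± 69.8 (n = 4) and 233 ± 164 CPM (n = 3) of *Clu*. *Apod* was 32.6, 89.9, 10.3 and 173 CPM in cochlear and 203 to 939 CPM in vestibular HCs, without overlap, and did not pass (log2 fold change -2.59 ± 0.84, adjusted p = 0.0516, 0.00845 to 0.247 under alternatives). It passed with DESeq2 and without cochlear replicate 5 (adjusted p = 0.0361), vestibular replicate 1 (0.0412) or vestibular replicate 5 (0.0411). *Apoe* did not pass (-0.83 ± 0.59, adjusted p = 0.332). The other 6 genes were too low in HCs to be tested.

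*Apod* was higher in the vestibule in every class with a call. Its log2 fold change was -2.55 in SCs, -2.55 in roof epithelium and -1.83 in fibrocytes, and -2.99 in macrophages (adjusted p = 0.0726), which did not pass. It passed with DESeq2 (adjusted p = 1.41e-05), without a filter on low counts (1.29e-10) and without cochlear replicate 3 (0.000298), the library with the highest cochlear value. In T or NK cells and erythroid cells, compared with 3 libraries each, it was -1.12 (adjusted p = 0.997) and -1.37 (adjusted p = 0.2), where 0.00% and 6.44% of genes were called. In erythroid cells TMM scaling moved log2 fold changes by -0.86 against plain CPM, and the mean *Apod* levels were 390 and 571 CPM. Fibrocyte RNA in other classes moved with it. The 6 fibrocyte markers, all with UMIs in both organs, summed to 34.3 to 186 CPM in cochlear and 305 to 1607 CPM in vestibular HCs, to 68 to 280 and 540 to 1574 CPM in SCs, and to 63 to 332 and 1048 to 3931 CPM in roof epithelium. In macrophages they summed to 221 to 992 and 1239 to 2443 CPM, and in pooled blood cells to 122 to 935 and 98.8 to 1649 CPM. *Lrp1* and *Apoe*, both high in fibrocytes, were also higher in vestibular roof epithelium, and *Lrp1* in vestibular SCs. Cochlear fibroblasts were also rich in *Apod* (12555 CPM). The 8 fibroblast markers went the other way in SCs, 297 to 384 CPM in cochlear and 15.5 to 61.6 CPM in vestibular cells. Their sums overlapped between organs in HCs (51.5 to 314 and 25.9 to 112 CPM) and roof epithelium (49.7 to 166 and 61.6 to 516 CPM). Macrophages overlapped too (9.4 to 115 and 34.5 to 469 CPM), and not all 8 had UMIs in each class. The part of fibrocyte or fibroblast RNA in these *Apod*, *Lrp1* and *Apoe* differences was not tested.

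Fibrocytes, the class richest in *Apod* of those compared between organs, differed between organs in 6 of the 8 genes tested, where 23.2% of 8840 genes were called. *Apod* was 7280, 5057, 3531 and 4970 CPM in the cochlea and 16511, 13367, 11951 and 13188 CPM in the vestibule (3.56-fold, adjusted p = 1.78e-05), and *Apoe* 3502 to 8376 against 10871 to 14052 CPM (2.46-fold, adjusted p = 0.00215). *Lpl* was 2.47 to 5.58 CPM in cochlear and 29.7 to 76.2 CPM in vestibular fibrocytes, 23.2-fold apart (adjusted p = 7.6e-11), and *Lrp2* was 4.34-fold higher in vestibular fibrocytes at levels below 27 CPM (adjusted p = 1.69e-05). None of these 4 genes overlapped between organs, and the share of all genes without overlap was not counted. Cochlear *Lpl* and *Lrp2* were so low that only the vestibular libraries could bring these genes past the low-count filter. Their lack of overlap therefore follows from entering the test.

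*Abca1* and *Apoc1* went against that direction in fibrocytes. *Abca1* was 228, 161, 123 and 145 CPM in the cochlea and 5.94, 46, 45.1 and 40.9 CPM in the vestibule (3.07-fold, adjusted p = 0.000171), without overlap. *Apoc1* was 9.51 to 71.3 against 5.94 to 16.7 CPM (3.15-fold, adjusted p = 0.0023), with overlap. *Clu* (adjusted p = 0.0766) and *Lrp1* (adjusted p = 0.763) did not pass, although *Clu*, lower in the cochlea, passed without cochlear replicate 1 (0.00729) and with DESeq2 (0.00242). In fibrocytes the TMM scaling of the test moved log2 fold changes by -0.43 against plain CPM, so *Lrp1*, which did not overlap in CPM, was near 0 in the test. The 10 macrophage markers summed to 53.9 to 212 CPM in cochlear and 10.7 to 35.1 CPM in vestibular fibrocytes, where *Adgre1* was at 0, and their part in the *Abca1* difference was not tested. With the stricter cell filter the *Lrp2* difference was lost (log2 fold change 0.14).

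Roof epithelium was called in all 5 of the genes tested, 2 higher and 3 lower in the cochlea, against 3.44% of 2821 genes (1.60% higher and 1.84% lower). *Lrp2* (5.11-fold, adjusted p = 8.47e-05) and *Clu* (2.48-fold, adjusted p = 0.0104) were higher in the cochlea and did not overlap. *Lrp1* was 8.29, 23.9, 33.2 and 17.2 CPM in cochlear and 173, 141, 107 and 89.4 CPM in vestibular cells (5.49-fold, adjusted p = 0.000373), without overlap. Only the vestibular libraries could bring *Lrp1* past the low-count filter. Its lack of overlap follows from entering the test, and its place among the 5 is no separate support. *Apod* (5.87-fold, adjusted p = 0.0233) and *Apoe* (2.27-fold, adjusted p = 0.037, 1555 to 3400 against 564 to 1594 CPM) were higher in the vestibule, and *Apoe* overlapped. The vestibular class held 16 to 43 cells per library. The *Apoe* call was lost without cochlear replicate 4 or 5 or vestibular replicate 1, 3 or 4 (adjusted p = 0.0935 to 0.123). It was also lost without a filter on low counts (0.059). The *Apod* call was lost without cochlear replicate 5 or vestibular replicate 1, 3 or 4 (0.052 to 0.117). With the stricter cell filter the *Apod* call was lost too (log2 fold change -2.11, adjusted p = 0.13).

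In macrophages none of the 7 genes tested passed in edgeR, where 0.327% of 3054 genes were called (0.196% higher and 0.131% lower in the cochlea). Unadjusted p in edgeR was under 0.05 for 4 of the 7, and for 355 of all 3054 genes. DESeq2 called *Apod*. *Trem2* (log2 fold change 0.98 ± 0.28, adjusted p = 0.146), *Abca1* (1.35 ± 0.44, adjusted p = 0.219), *Lrp1* (0.8 ± 0.33, adjusted p = 0.345) and *Lpl* (1.93 ± 0.93, adjusted p = 0.492) had values above 0 and *Apoe* had -0.22 ± 0.31 (adjusted p = 0.878). Without the *Saa3* cluster, an alternative chosen after seeing the data, *Abca1* was -0.11 and *Lrp1* -0.16. Without cochlear replicate 5, *Trem2* and *Abca1* passed the threshold (adjusted p = 0.0385 and 0.00794), whereas the stricter cell filter brought *Trem2* to 0.29 (adjusted p = 0.886).

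A wider list of 68 lipid genes in 7 groups was tested alongside. In whole libraries 9 of its 58 tested genes were higher and 8 lower in the cochlea, against 11.2% and 13.5% of all genes, with a median log2 fold change of 0.16 against -0.01 for all genes. Cholesterol export and its control had 4 of 11 genes higher and none lower, among them *Nr1h3*, which encodes the oxysterol receptor LXR alpha (log2 fold change 1.77, adjusted p = 0.000459). Sterol synthesis had 3 of 6 lower. Large differences were those of *Fabp3*, a fatty acid binding protein (4.18), *Vldlr*, the VLDL receptor (2.82), and *Spp1*, osteopontin (-2.8).

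In HCs 11 of 32 tested genes were higher and 11 lower in the cochlea (17.5% and 20.1% of all genes; median log2 fold change 0.30 against -0.02), and 5 of 6 genes of sterol synthesis and its control were lower. *Sorl1*, a sorting receptor of the LDL receptor family (3.73), *Cd9* (3.89) and *Lgals3* (2.75) were higher and *Apoa1* (-4.19) and *Spp1* (-6.39, adjusted p = 0.0461) lower. *Spp1* marks type I vestibular HCs and was fixed as such a marker too. In SCs 6 of 30 were higher and 11 lower (13.4% and 16.0% of all genes; median -0.29 against 0.02), led by *Vldlr* (7.35), *Fabp3* (7.04), *Spp1* (-4.97), *Pltp*, a phospholipid transfer protein (1.84), and *Lmf1*, which matures lipases (-1.79). Mean *Spp1* was 30457 CPM in vestibular and 325 CPM in cochlear HCs. The 10 HC markers summed to 973 to 1382 CPM in vestibular and 361 to 427 CPM in cochlear SCs. The part of HC RNA in the SC difference of *Spp1* was not tested.

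In fibrocytes 4 of 39 were higher and 10 lower (12.4% and 10.8% of all genes). *Nr1h3* was higher in cochlear fibrocytes (2.08, adjusted p = 1.82e-06), as was *Abca1*, a known target of that receptor. Of the 9 tested list genes of cholesterol export and its control, 2 were higher and 4 lower, among these *Abcg1* (-1.03, adjusted p = 0.0125). A link between *Nr1h3* and *Abca1* was not tested. *Fabp7* (-4.4), *Lmf1* (-1.81), *Sqle* (-1.64), a sterol synthesis enzyme, and *Dab2* (-1.55), an adaptor of LRP2, were lower. In roof epithelium none of 15 passed in edgeR, against 3.44% of all genes. Unadjusted p was under 0.05 for 4 of these 15, and for 471 of all 2821 genes tested. In macrophages 1 of 28 passed, against 0.327% of all genes, the lysosomal lipase *Lipa* (1.71, adjusted p = 0.0184). In erythroid cells *Lgals3* (4.46), *Tyrobp* (3.51) and *Npc2* (1.66) were the 3 of 15 that passed, all higher in the cochlea (4.84% of all genes were higher and 1.60% lower), with the 10 macrophage markers at 54 to 870 CPM in cochlear and 42.3 to 88 CPM in vestibular pooled blood cells, whose part in this was not tested.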

How the data were processed

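The deposited values are UMI counts per gene and cell barcode, which the authors made with Cell Ranger against mm10. The file headers name version 5.0.1 for replicates 1 and 2 and 6.1.2 for replicates 3, 4 and 5, and the submitters' notes name 6.1.2 and Seurat. Barcodes below 200 detected genes or 1000 UMIs, or reaching 25% mitochondrial UMIs, were removed (total UMIs per library 2738036 to 26974948, which limit the precision of low genes). Each organ was clustered in Seurat 5.3.0 (R 4.3.3) with 2000 variable genes, 30 components and resolution 1, without the 9 genes and the lipid list. Clusters were named from fixed markers (at least 3 enriched by log2 fold change 1 in 25% of cells), under rules completed after the clusters were seen. No doublet caller was run.

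Counts were summed per library and class (10 or more cells) and tested with edgeR 4.0.16 (TMM, quasi-likelihood, Benjamini-Hochberg), with DESeq2 1.42.0 as an alternative. The procedure was tested on simulated data. Levels are CPM, and shares carry 95% exact binomial (Clopper-Pearson) intervals. Normalization, filters, clustering and left-out libraries were varied. The 9 genes were always named, with up to 5 called lipid genes of the largest change per comparison. Some genes that these rules select are not reported here. The genes and lists were chosen with earlier results of these data known. Promoters are RefSeq sequences of GRCm38.p6.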

Additional observations from a re-analysis of the deposited data

Results flagged for a closer look

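In 6 of 96 groups of 4 libraries, the highest or lowest library lay farther from the rest than Dixon's 95% limit, which chance gives in about 1 group in 20. *Apoe* in vestibular macrophages was 39504.1 CPM in replicate 1, which held 10 such cells, against 13036 to 17145 CPM in the rest, and *Clu* in the same cells was 0.0 CPM against 137 to 144. *Apod* in cochlear macrophages was 333.0 CPM in replicate 3 against 47.0 to 79.3. *Clu* in cochlear fibrocytes was 2136.2 CPM in replicate 1 against 1571 to 1620, and *Abca1* in vestibular fibrocytes was 5.9 CPM in replicate 1 against 40.9 to 46.0. *Lrp2* in vestibular melanocytes was 137.5 CPM in replicate 3 and 0 in the rest.

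The organ differences of 2 cell classes were set against each other. In 5 cases the fitted changes had opposite sign with no overlap between organs in either class, a choice that by itself fixes p at its smallest value. The difference of log2 changes was -5.64 for *Clu* in HCs against SCs, -2.927 for *Clu* in HCs against roof epithelium, -2.344 for *Lrp1* in SCs against fibrocytes, -3.21 for *Lrp1* in roof epithelium against fibrocytes and 3.956 for *Lrp2* in roof epithelium against fibrocytes. Each had p = 0.0286 in an exact two-sided permutation of organ labels over 8 libraries, the smallest p that this design allows. As the choice of cases set that value, it is no support for them. Of 42 such pairs of classes 14 reached it, and the adjusted p was 0.0858, so none passed the correction. The fibrocyte change of *Lrp1* was only 0.11 (adjusted p = 0.763) and changed sign under alternatives.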

How the results depend on the processing

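Over 736 alternative values of 44 organ differences, 672 kept their direction and side of the threshold, 21 gained a call, 18 lost one and 25 changed sign; of 81 alternative levels, 78 moved by less than the replicate SD. Alternatives without the *Saa3*, *Rbp7* or *Myh13* cluster were chosen after seeing the data, and the causes of changes were not tested. Depth limits *Apoc1*, *Lpl*, *Abca1*, *Trem2*, *Lrp1* and *Lrp2* in HCs. T or NK and erythroid cells have 3 libraries per organ, so a left-out library leaves 2.

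Genes called without a filter on low counts numbered 3637 in SCs (2345 with it), 288 in roof epithelium (97), 3328 in fibrocytes (2052), 313 in macrophages (10), 15 in T or NK cells (0) and 493 in erythroid cells (234). With the stricter cell filter they numbered 1243 in SCs, 152 in roof epithelium and 1 in macrophages. DESeq2 called 48 in macrophages, 1 in T or NK cells (42 genes had an unadjusted p under 0.05 in edgeR) and 132 in erythroid cells. Clustering with the 9 genes and the lipid list gave 21 in macrophages. With each replicate left out the counts were 50 to 215 in roof epithelium, 4 to 138 in macrophages, 0 to 1 in T or NK cells and 42 to 873 in erythroid cells.

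Sign changes were all in differences that did not pass, except *Lrp2* in fibrocytes (0.14 with the stricter cell filter). That filter also gave 0.0063 for *Apoe* in HCs, 0.024 for *Abca1* and 1.58 for *Apoc1* in SCs, -0.0555 for *Lrp1* in fibrocytes and -0.76 for *Clu* in erythroid cells. Resolution 2 gave -0.0842 for *Lrp1* in fibrocytes. Without the *Saa3* cluster, macrophages gave -0.11 for *Abca1*, 0.12 for *Apoe*, -0.16 for *Lrp1* and 0.35 for *Clu*. *Clu* in macrophages was 0.19 with DESeq2, *Clu* in erythroid cells -0.28 without a filter on low counts, and *Lrp1* in erythroid cells 0.0589 with replicate 1 alone. With each replicate left out, the values ran from -0.38 to 0.14 for *Apoe* and from -0.60 to 0.24 for *Clu* in macrophages, and from -0.46 to 0.33 for *Lrp1* and from -0.56 to 0.35 for *Clu* in erythroid cells.

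Same-numbered cochlear and vestibular libraries were not treated as pairs, since the labels give no shared mice and, with 4 pairs, no comparison had every correlation of their deviations over 0.1. The correlations were 0.047 to 0.284 in whole libraries, 0.072 to 0.329 in SCs, where 3 of 4 were over 0.1, and -0.143 to 0.142 in roof epithelium. They were low but all positive in HCs (0.045 to 0.202), fibrocytes (0.069 to 0.116) and macrophages (0.018 to 0.092). With the replicate block 4107 genes were called in whole libraries (3592 without), 3549 in HCs (3357), 2998 in SCs (2345), 81 in roof epithelium (97), 2338 in fibrocytes (2052), 9 in macrophages (10), 20 in T or NK cells (0) and 549 in erythroid cells (234). Under the block *Clu* was 0.0216 in macrophages and -0.71 in erythroid cells, *Apoe* passed in HCs and SCs and *Apod* in erythroid cells, and *Apoe* and *Apod* in roof epithelium and *Apod* in SCs did not.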
